A study of Mus musculus with 2 samples.

Results

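Surfactant production was examined through 10 genes: Sftpc, Sftpb, Sftpa1, Sftpd, Napsa, Lamp3, Abca3, Slc34a2, Lpcat1 and Sfta2. They were chosen by symbol and not by a cut on their values, though with earlier results of these data known. All 10 were found among the 31053 genes listed for both libraries. The libraries came from lungs of Pclaf WT and Pclaf KO mice aged 8 to 10 weeks, 1 week after bleomycin, an agent that injures the alveolar epithelium, given at 1.35 U/kg per the series description (the methods give another dose). Pclaf encodes a PCNA-associated protein of proliferating cells, and the knock-out mice came from a germline model established earlier. Dissociated lung was sorted for Cd31-/Cd45-/Epcam+ cells, a gate meant to keep epithelium and to remove endothelial and blood cells. For each group 16000 cells were loaded on a Chromium 3' chip, and each genotype gave 1 library. The number of animals behind each library is not given in the sources used here, and without a replicate no difference between the libraries can be tested. All intervals are 95% intervals for counting error only (exact Poisson for summed counts and their ratios, exact Clopper-Pearson for shares of cells).

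Surfactant is the film of phospholipid and protein that lowers surface tension at the air side of the alveolus. Alveolar type II (AT2) cells make it, store it in lysosome-related organelles called lamellar bodies and secrete it, and airway club cells are known to make some of its proteins. SP-B and SP-C (Sftpb, Sftpc) are small hydrophobic proteins that spread the film, SP-A and SP-D (Sftpa1, Sftpd) are collectins of innate defence, and the other genes serve processing, lipid supply, phosphate transport or the lamellar body itself.

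In the mouse genome (GRCm38, GENCODE M21) the collectin genes Sftpa1 (chr14:41131782-41136452, plus strand) and Sftpd (chr14:41172214-41185149, minus strand) are neighbours on chromosome 14, 35761 bp apart. Sftpc lies at chr14:70520949-70524081 on the minus strand and Sftpb at chr6:72304610-72314371 on the plus strand. Napsa (chr7:44572380-44586862, plus strand) and Slc34a2 (chr5:53038081-53071664, plus strand) each overlap an antisense gene that was counted separately (Gm15396 and Gm17182). Sfta2 (chr17:35601549-35650571, plus strand) and Abca3 (chr17:24351950-24410201, plus strand) also overlap genes on the other strand, so their counts rest on the strand setting of the counting. Lamp3 lies at chr16:19653378-19706375 on the minus strand and Lpcat1 at chr13:73467197-73516422 on the plus strand.

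RefSeq start sites gave promoter windows of 250 bases before the start for 7 of the 10 members, and Sftpc, Sftpd and Napsa were not matched. The letters CTCAAG, a core bound by NKX2-1, the transcription factor of lung epithelium, were searched on both strands (CTTGAG on the other). They occurred in 3 of the 7 windows, against 13.3% of 32851 such windows over all genes. Those 3 windows are shown, with the match in capitals. Their genes were held by club-like cells out of proportion to Sftpc (described later), but so were the other genes with a window. Abca3 is set beside them as a gene of the same club pattern whose window holds no match. The windows of Lamp3, Slc34a2 and Lpcat1 hold no match either, and a link between match and club pattern was not tested. All are RefSeq sequence of GRCm38.p6, read 5′ to 3′ on the plus strand, at chr6:72304360-72304609 for Sftpb, chr14:41131538-41131787 for Sftpa1, chr17:35649458-35649707 for Sfta2 and chr17:24351773-24352022 for Abca3.
Sftpb: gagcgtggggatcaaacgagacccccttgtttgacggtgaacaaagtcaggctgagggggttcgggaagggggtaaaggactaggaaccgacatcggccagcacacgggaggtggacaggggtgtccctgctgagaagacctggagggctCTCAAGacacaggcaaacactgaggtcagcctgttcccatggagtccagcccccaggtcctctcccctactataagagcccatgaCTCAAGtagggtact
Sftpa1: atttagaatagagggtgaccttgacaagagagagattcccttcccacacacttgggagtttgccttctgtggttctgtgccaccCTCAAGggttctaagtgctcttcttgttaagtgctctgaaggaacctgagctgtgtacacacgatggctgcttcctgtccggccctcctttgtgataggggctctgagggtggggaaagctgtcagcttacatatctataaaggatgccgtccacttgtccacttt
Sfta2: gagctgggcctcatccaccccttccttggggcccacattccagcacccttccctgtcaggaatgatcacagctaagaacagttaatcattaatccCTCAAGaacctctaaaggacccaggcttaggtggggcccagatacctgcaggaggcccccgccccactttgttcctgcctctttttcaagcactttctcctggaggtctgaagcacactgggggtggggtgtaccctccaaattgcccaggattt
Abca3: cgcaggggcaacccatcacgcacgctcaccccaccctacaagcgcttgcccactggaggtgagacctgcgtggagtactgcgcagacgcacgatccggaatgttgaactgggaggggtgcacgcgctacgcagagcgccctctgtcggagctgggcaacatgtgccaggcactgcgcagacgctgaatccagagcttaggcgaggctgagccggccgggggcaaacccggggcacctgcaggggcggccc
The Sftpb window held a pair of matches, 100 and 15 bases before the start site, the Sftpa1 window 1 match at 166 bases and the Sfta2 window 1 match at 155 bases. TGTTTAC, a forkhead core, was in 1 window, that of Lamp3 (92 bases before the start, against 3.17% of all windows). TTGCNNAA, a C/EBP core, was in that of Slc34a2 (48 bases, against 9.56%), and TATAAA in that of Sftpa1 (30 bases, against 12.4%), each searched on both strands. The Abca3 and Lpcat1 windows held none of these letters. A match describes letters in the window and not a bound site, and the Sfta2 and Slc34a2 windows lie inside the longer GENCODE gene spans.

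The deposited matrices held 30669 barcodes with 98171818 unique molecular identifiers (UMIs, 1 per captured transcript molecule) in the library labelled WT and 17172 barcodes with 111267567 UMIs in the library labelled KO. Cell filters left 30187 and 15637 barcodes, with a median of 2127 and 5957 UMIs, and 163 barcode sequences were shared. Despite the sort, 3.45% of kept barcodes were epithelial by marker genes in the library labelled WT and 61.7% in the library labelled KO. Immune and endothelial cells made up 36.7% and 30.7% of the former against 3.01% and 3.11% of the latter. Levels are UMIs per 1000000 UMIs of the cells named (CPM). Pclaf stood at 39.3 CPM over all cells of the library labelled WT and at 5.19 in the other. In cycling epithelial cells (25 and 243) it was at 111 (69.4 to 168) and 97.4 (85.8 to 110.0) CPM, which goes against the KO label and touches every direction given here. Where the deleted part lies relative to the 3' tag is not given in the sources used here. Xist, expressed in female cells, was at 254 and 498 CPM and the Y-linked Ddx3y at 74.0 and 24.0, although the methods describe male mice. The members together took 0.809% of UMIs in the library labelled WT and 10.9% in the library labelled KO, a difference that cannot be told apart from the makeup of cells.

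Cells were assigned to classes by lists of 10 marker genes, none of them a member. This gave 427 and 6114 AT2-like cells in the libraries labelled WT and KO, of which 16 and 192 lay at the edge of the rule at the step from lineage to class. Cells at the edge of the lineage step are not in these numbers. With a margin of 3 markers 334 and 5281 AT2-like cells remained. All 10 AT2 markers were higher there than in other epithelial cells, which the rule itself favours, so it is no separate support for the class. Their median depth was 5302 and 7411 UMIs, and nuclear-retained RNA, a sign of RNA quality, was at 14469 and 14595 CPM. In AT2-like cells the 10 genes together took 17.4% and 20.3% of UMIs. The median cell held 18.0% and 20.5%, so the summed values were close to those of a typical cell.

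Sftpc, the member known as most restricted to AT2 cells, stood at 135191 (134727 to 135656) CPM in AT2-like cells of the library labelled WT and at 161500 (161386 to 161614) in the library labelled KO, which put the log2 of the KO level over the WT level at 0.26 (0.25 to 0.26). The per-cell levels overlapped widely, with the 5th to the 95th percentile of cells from 46359 to 215877 CPM in the first library and from 63303 to 255762 in the second. Sftpb was at 6709 (6606 to 6813) and 6597 (6574 to 6620) CPM, a log2 ratio of -0.02 (-0.05 to -0.00). The ratios of these hydrophobic protein genes lay apart by more than counting error, and the contrast has no replicate to test it.

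Of the collectins, Sftpa1 was at 16608 (16445 to 16771) CPM in AT2-like cells of the library labelled WT and 19317 (19277 to 19356) in the library labelled KO, a log2 ratio of 0.22 (0.20 to 0.23). Sftpd was at 4282 (4200 to 4365) and 4612 (4593 to 4631), a log2 ratio of 0.11 (0.08 to 0.14). Both collectins were higher in the library labelled KO beyond counting error but by less than their spread between cells, which for Sftpd ran from 1138 to 8140 CPM (5th to 95th percentile) in the library labelled WT. Napsa, an aspartic protease that helps to process pro-SP-B, was at 1754 (1701 to 1807) and 1964 (1952 to 1977), a log2 ratio of 0.16 (0.12 to 0.21).

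Abca3, the transporter that loads lipid into the lamellar body, was at 718 (685 to 753) CPM in AT2-like cells of the library labelled WT and at 729 (721 to 737) in the library labelled KO, with a log2 ratio of 0.02 (-0.05 to 0.09). Lamp3, a membrane protein of the lamellar body, was at 1810 (1757 to 1865) and 1719 (1707 to 1731), a log2 ratio of -0.07 (-0.12 to -0.03). Lpcat1, the lysophosphatidylcholine acyltransferase of surfactant lipid synthesis, was at 1176 (1133 to 1220) and 1193 (1183 to 1203), a log2 ratio of 0.02 (-0.03 to 0.08). Of these lamellar body and lipid genes, Lamp3 alone differed beyond counting error. Slc34a2, the sodium-phosphate cotransporter of the AT2 cell, was at 4668 (4582 to 4755) and 4350 (4331 to 4369), the lowest ratio of the 10 at a log2 of -0.10 (-0.13 to -0.07). Sfta2, which encodes a secreted surfactant-associated protein, was at 953 (914 to 993) and 945 (937 to 954), a log2 ratio of -0.01 (-0.07 to 0.05).

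Across the 10 genes in AT2-like cells, 6 were higher and 4 lower in the library labelled KO, where 33.6% of 12607 genes with at least 50 UMIs over the pair of libraries were higher. None of the 10 differed by 2-fold in either direction, against 7.03% of 12607 genes, and their median log2 ratio was 0.02 where the median of all genes was -0.12. The counting interval lay above 0 for Sftpc, Sftpa1, Sftpd and Napsa and below 0 for Sftpb, Lamp3 and Slc34a2. The direction of most members depended on the scaling: all 10 were higher in the library labelled KO with TMM factors, which shifted every log2 ratio by 0.17, 8 were higher per UMI outside the 10 genes, and 3 (Sftpc, Sftpa1 and Napsa) after the level in immune and endothelial cells of the same library was subtracted. The summed level was higher in the library labelled KO by a log2 of 0.22 (0.22 to 0.23), and by 0.10 after that subtraction. Both subtracted values rest on few immune and endothelial cells rich in the 10 genes (described later), and without them the subtraction left 5 genes higher and a summed log2 of 0.20. The share of all genes higher (33.6%) was computed from CPM and not under these other scalings, so it is no base for their counts. The TMM shift is the same for all genes and is larger than the distance of their median from 0.

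**Figure D1:**
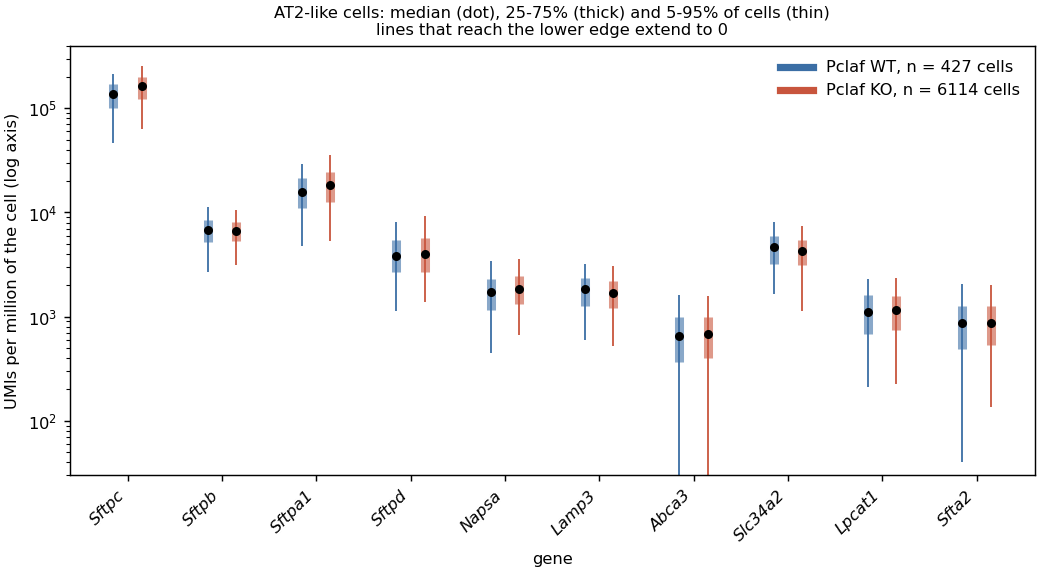
Levels of the 10 genes per AT2-like cell, in CPM of the cell (log axis), for 427 cells of the library labelled WT and 6114 of the library labelled KO. Dots are medians, thick lines the 25th to the 75th and thin lines the 5th to the 95th percentile, and for each gene the cells of the libraries overlap over most of their range.

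All 10 genes were highest in AT2-like cells among the 7 epithelial classes in both libraries (AT2, Krt8+, AT1, club, goblet, ciliated and basal, without the intermediate cells that met the rule for AT2 and for another alveolar class). The share of all genes that were highest there was not computed. The distance of the 10 genes to their next class split the list. Sftpc was 34.0-fold lower in the second class (Krt8+) of the library labelled WT and 15.2-fold lower in that (AT1) of the library labelled KO. These folds rest on few cells: without cells in which the 10 genes took over 5% of UMIs, AT1 was the second class in both libraries, 119-fold and 41.1-fold below AT2. Lamp3 was 42.4-fold and 25.2-fold lower in the same classes (87.9-fold and 35.1-fold without those cells, both against AT1), and Slc34a2 27.2-fold and 19.1-fold lower in club-like cells. The step was shallower for 4 other genes whose second class was club, at 3.64-fold and 4.26-fold for Sftpb, 4.37-fold and 4.29-fold for Sfta2, 5.55-fold and 4.34-fold for Sftpd and 9.21-fold and 8.45-fold for Sftpa1. Napsa and Lpcat1 were second highest in AT1-like cells, 14.3-fold and 6.97-fold lower for Napsa and 10.5-fold and 9.24-fold lower for Lpcat1. Abca3 was second highest in ciliated-like cells of the library labelled WT, at 161 (135 to 191) CPM, and club-like cells at 160.1 (132 to 193) did not differ from them beyond counting error and came second without the cells over 5%. In the library labelled KO club at 143 (134 to 153) stood before ciliated at 125 (117 to 133). Goblet-like (2 and 15) and basal-like (2 and 39) cells were too few to place in the order.

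**Figure D2:**
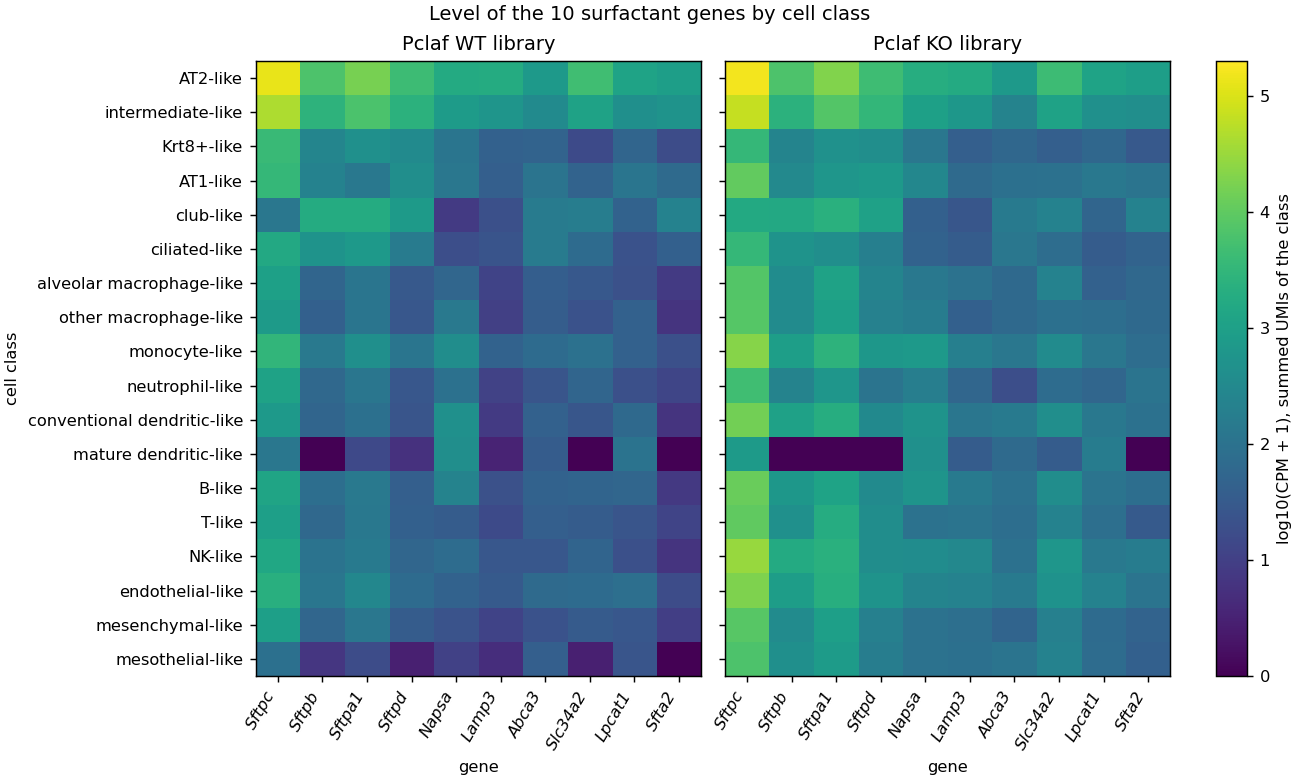
Summed level of each gene in each cell class of both libraries, as the log10 of CPM plus 1. AT2-like cells are the highest epithelial class for every gene, and club-like cells hold Sftpb, Sftpa1, Sftpd and Sfta2 with little Sftpc.

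Club-like cells (58 and 437), the secretory cells of the small airways, held a surfactant profile of their own. Sftpc was at 128 (103 to 157) CPM in the library labelled WT and 1676 (1644 to 1709) in the library labelled KO, 0.0943% and 1.04% of its AT2-like level. In the same cells Sftpb was at 1842 (1744 to 1945) and 1547 (1516 to 1579) CPM, 27.5% and 23.5% of its AT2-like level. Sftpa1 was at 1804 (1706 to 1906) and 2285 (2248 to 2323), or 10.9% and 11.8% of AT2-like. SP-A and SP-B messages were thus kept at a larger part of their AT2-like level than Sftpc in both libraries. Sftpd was at 771 (708 to 839) and 1064 (1038 to 1090) CPM (18.0% and 23.1% of AT2-like) and Sfta2 at 218 (185 to 256) and 221 (209 to 233), or 22.9% and 23.3%. Abca3 stood at 22.3% and 19.7% of its AT2-like level. After thinning every cell to 1000 UMIs, 72.4% and 63.4% of club-like cells held an Sftpb UMI (91.4% and 93.1% unthinned), against 2.32% and 17.1% of immune and endothelial cells (4.29% and 31.6% unthinned), which should lack it. Median depths before thinning were 11556 and 12631 UMIs in club-like and 2361 and 2772 in immune and endothelial cells.

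Free RNA from 1 source keeps its genes in 1 ratio, so each gene's count was set against the count that the Sftpc UMIs of the class give at the AT2-like ratio of the same library. In club-like cells all 9 genes other than Sftpc lay above that count in both libraries. Sftpc is the member known as most restricted to AT2 cells, so genes with expression of their own elsewhere lie above a count set by it. The number above is therefore no separate support, and the share of all genes above that count was not computed. In the library labelled WT Sftpb was 291-fold (275 to 307) above it, Sfta2 243-fold (206 to 284), Abca3 236-fold (195 to 284), Sftpd 191-fold (175 to 208) and Sftpa1 115-fold (109 to 122). In the library labelled KO, where club-like cells held more Sftpc, Sftpb was 22.6-fold (22.1 to 23.1) above it, Sfta2 22.5-fold (21.3 to 23.7), Sftpd 22.2-fold (21.7 to 22.8), Abca3 18.9-fold (17.7 to 20.2) and Sftpa1 11.4-fold (11.2 to 11.6). Napsa and Lamp3 were nearer to the AT2-like ratio, at 2.06-fold (1.82 to 2.32) and 1.41-fold (1.19 to 1.65) in the library labelled KO. Club-like Sftpc itself was 0.086-fold and 0.11-fold of its level in immune and endothelial cells. Napsa (0.052-fold and 0.14-fold), Lamp3 (0.89-fold and 0.15-fold) and Lpcat1 (0.82-fold and 0.36-fold) were also below their level there. Slc34a2 was at 3.53-fold and 0.60-fold of it. Sftpb, Sftpa1, Sftpd, Abca3 and Sfta2 were above it in both libraries, from 1.25-fold (Abca3) to 2.58-fold (Sftpd) in the library labelled KO. That level rests on few cells rich in the 10 genes (described later). Without cells over 5% in either group, club-like Slc34a2 of the library labelled KO was at 217 CPM against 70.6, and Sftpb at 1530 against 205. In the library labelled WT Lamp3 was then at 18.4 against 5.02 and Lpcat1 at 45.4 against 43.8. Sftpc and Napsa stayed below that level in both libraries, as did Lamp3 and Lpcat1 in the library labelled KO. Between the libraries, 2 of the 10 genes were at least 2-fold higher in club-like cells of the library labelled KO, Sftpc by a log2 of 3.72 (3.42 to 4.03) and Napsa by 2.57 (1.32 to 4.20), from 5 UMIs in the library labelled WT, against 2.86% of 7382 genes. The log2 ratio of Sftpb there was -0.25 (-0.34 to -0.17).

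Ciliated-like cells (124 and 1035), which move mucus, showed a smaller part of the same pattern. Sftpb was at 526 (477 to 578) and 529 (513 to 545) CPM, 6.57-fold (5.97 to 7.22) and 3.89-fold (3.78 to 4.01) above the count set by Sftpc. Abca3 was 18.8-fold (15.7 to 22.3) and 8.30-fold (7.79 to 8.83) above it. Relative to immune and endothelial cells Sftpb stood at 6.38-fold and 0.74-fold, Sftpa1 at 3.91-fold and 0.24-fold and Sftpd at 3.20-fold and 0.47-fold. Sfta2 stood at 3.80-fold and 0.56-fold and Abca3 at 3.20-fold and 1.09-fold. Without cells over 5% in either group, Sftpb of the library labelled KO was at 464 CPM against 205 and Sftpa1 at 188 against 307. Of the ciliated-like cells, 1 of 124 cells of the library labelled WT held 45.4% of the member UMIs and 19 cells of the library labelled KO held 49.9%. Without them the excess of Sftpb was 26.1-fold (23.5 to 28.8) and 8.02-fold (7.76 to 8.29) and that of Abca3 was also larger in both libraries, so the size of the excess depends on those cells. Lamp3 and Napsa, whose intervals included the AT2-like ratio with all cells, were then above it at 3.28-fold (1.75 to 5.61) and 1.30-fold (1.10 to 1.53) and 2.87-fold (1.43 to 5.13) and 1.51-fold (1.31 to 1.73). Cells are left out by a sum in which Sftpc is the largest part, and Sftpc is the base of the ratio. The limit therefore tends to raise the ratios and is no separate support for an excess. Sftpa1 differed from its course in AT2-like cells, at 752 (694 to 814) CPM in the library labelled WT and 419.7 (406 to 434) in the library labelled KO, a log2 ratio of -0.84 (-0.97 to -0.72), and 16.1% and 61.3% of ciliated-like cells held a UMI of it. That ratio was -1.70 (-1.85 to -1.55) without the cells over 5% and -1.10 (-1.31 to -0.90) without those over 1%.

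**Figure D3:**
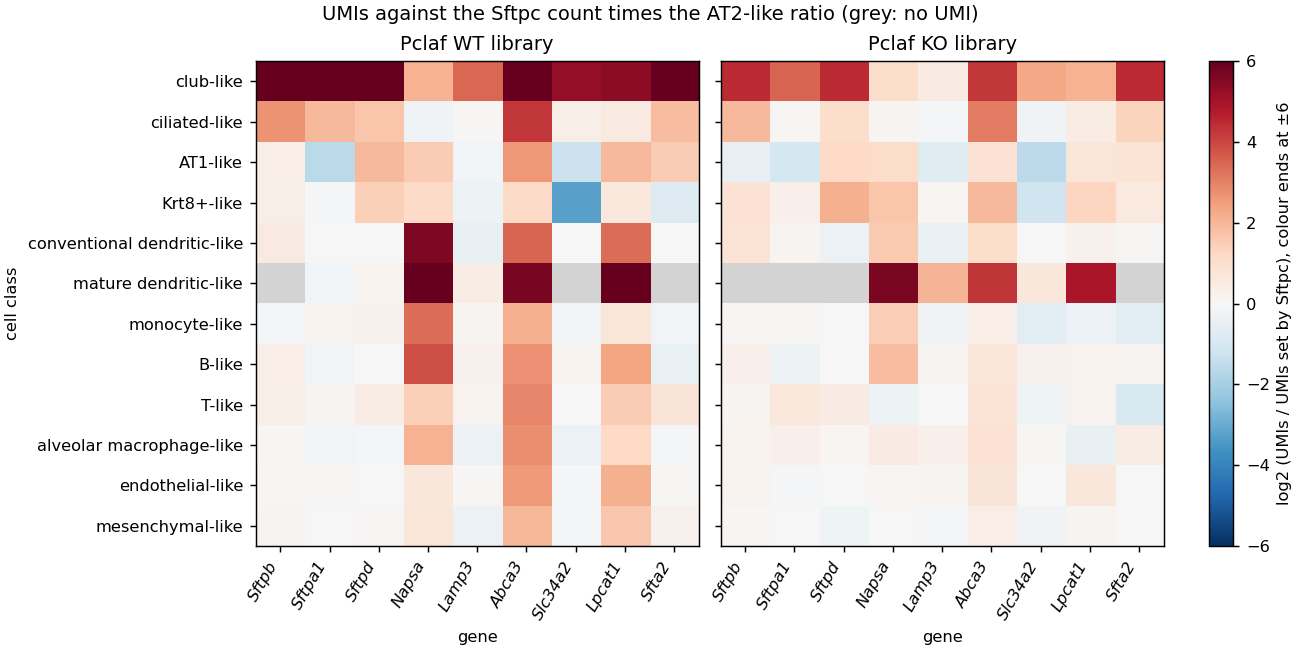
Count of each gene against the count set by the Sftpc UMIs of the class at the AT2-like ratio of the same library, as a log2 ratio (white is 0, grey is no UMI). Club-like cells are above the ratio for all 9 genes, and dendritic, monocyte and B-like cells of the library labelled WT are among the immune classes above it for Napsa. The share of all genes above it was not computed.

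In the alveolar classes next to AT2 the members fell unequally. Intermediate cells (20 and 242) held Sftpc at 44830 (43706 to 45976) and 67240 (66870 to 67612) CPM, 33.2% and 41.6% of AT2-like. In these cells Sftpd was at 58.3% and 70.8% of its AT2-like level and Slc34a2 at 24.4% and 26.1%. The collectin was thus kept more than the phosphate transporter in both libraries. AT1-like cells (183 and 571), the flat cells of gas exchange, held Sftpc at 3331 (3181 to 3486) and 10640 (10521 to 10759) CPM. Sftpd was at 407 (355 to 463) and 696 (666 to 728), which is 9.50% and 15.1% of AT2-like and 3.85-fold (3.37 to 4.39) and 2.29-fold (2.19 to 2.39) above the count set by Sftpc. Lpcat1 was at 112 (85.5 to 143) and 129 (116 to 143), 3.85-fold (2.95 to 4.94) and 1.64-fold (1.48 to 1.82) above it. Slc34a2 lay below that count at 0.407-fold (0.266 to 0.596) and 0.335-fold (0.297 to 0.377), as did Sftpa1 at 0.321-fold (0.252 to 0.404) and 0.485-fold (0.463 to 0.508). Against Sftpc, the AT1-like profile was rich in Sftpd, Napsa, Abca3, Lpcat1 and Sfta2 in both libraries. Without cells over 5% Sftpd stood at 9.27-fold (7.96 to 10.7) and 4.99-fold (4.74 to 5.25). Without cells over 1% it stood at 19.0-fold (16.0 to 22.4) and 6.52-fold (6.02 to 7.06). These limits tend to lower Sftpc, the base of the ratio, so the rise is no separate support for the excess. For Napsa, Abca3 and Lpcat1 the excess was not particular to AT1-like cells, since immune and endothelial cells showed such an excess too (described later). Relative to the level in those cells they stood at 0.90-fold, 2.15-fold and 2.02-fold in the library labelled WT. In the library labelled KO they stood at 0.96-fold, 0.77-fold and 0.88-fold. Without cells over 5% they were at 203, 80.5 and 110 CPM in AT1-like cells of that library. Immune and endothelial cells then held 154, 60.6 and 60.3 CPM. Without cells over 1% Napsa was lower again in AT1-like cells, at 94.8 against 141. With all cells, Sftpd and Sfta2 were above the immune and endothelial level in both libraries. Slc34a2 stayed below the Sftpc-set count without cells over 5%, at 0.287-fold (0.105 to 0.624) and 0.628-fold (0.538 to 0.728), but not without cells over 1%, at 0.736-fold (0.270 to 1.60) and 0.974-fold (0.779 to 1.20). Sftpa1 was below it without cells over 5% in both libraries and without cells over 1% in the library labelled WT, but at 0.994-fold (0.898 to 1.10) in the library labelled KO.

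Krt8+-like cells (70 and 302), the transitional state described after lung injury, also held more Sftpd than their Sftpc gave. In the library labelled WT the genes that led this class by fold began with Pyy, Ccl5 and Npy rather than with its markers. Sftpc was at 3982 (3808 to 4162) CPM in the library labelled WT and 3311 (3235 to 3388) in the library labelled KO. Sftpd was at 335 (286 to 391) and 419 (392 to 447), 2.66-fold (2.27 to 3.10) and 4.43-fold (4.15 to 4.73) above the count set by Sftpc. Napsa was 2.20-fold (1.66 to 2.86) and 3.16-fold (2.80 to 3.55) above it, while Slc34a2, with 7 and 86 UMIs, lay at 0.103-fold (0.0416 to 0.213) and 0.443-fold (0.354 to 0.547). The Krt8+-like Napsa level was 0.84-fold and 0.43-fold of that in immune and endothelial cells, which also held more Napsa than their Sftpc gave (described later). The low Slc34a2 depended on cells rich in the 10 genes: without the 2 and 4 cells over 5% of UMIs from them it lay at 0.479-fold (0.193 to 0.987) and 0.854-fold (0.679 to 1.06), and without cells over 1% at 1.14-fold (0.458 to 2.35) and 1.12-fold (0.885 to 1.40). Sftpd was then higher above the count, at 10.7-fold (9.06 to 12.7) and 6.59-fold (6.10 to 7.11) without cells over 5%. The limit tends to raise these ratios, as said for ciliated-like cells. Of the 10 genes, 1 (Slc34a2, log2 1.47, 0.37 to 2.83) differed by 2-fold between the libraries in these cells, against 5.55% of 7058 genes.

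In AT1-like cells 4 of the 10 genes were at least 2-fold higher in the library labelled KO, against 2.06% of 7729 genes: Sftpa1 (log2 2.23, 1.89 to 2.59), Sftpc (1.68, 1.61 to 1.74), Napsa (1.20, 0.85 to 1.58) and Slc34a2 (1.04, 0.46 to 1.68). Abca3 (-0.30, -0.71 to 0.13) and Lpcat1 (0.21, -0.18 to 0.62) were not, and their intervals included 0. Sftpc in immune and endothelial cells was also higher in that library, by a log2 of 3.32 (3.30 to 3.33), and its part in the AT1-like difference was not tested. After thinning to 1000 UMIs, which left out 59 and 49 shallower cells, 32.3% and 75.9% of AT1-like cells held an Sftpc UMI (44.8% and 98.4% unthinned). Immune and endothelial cells gave 15.3% and 81.5% (32.3% and 98.9% unthinned), so in the library labelled KO the AT1-like share was at or below background.

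Few cells carried these pooled levels. The 10 genes took over 5% of UMIs in 5 of 183 AT1-like cells of the library labelled WT and in 38 of 571 of the library labelled KO, and those cells held 56.3% and 60.3% of all member UMIs of the class. In Krt8+-like cells it was 2 and 4 cells with 63.4% and 44.2%. Without them the AT1-like log2 ratio of the summed level went from 1.51 (1.45 to 1.57) to 1.44 (1.35 to 1.53), while the Krt8+-like ratio turned from -0.14 (-0.21 to -0.08) to 0.44 (0.34 to 0.54) and that of Sftpc from -0.27 (-0.34 to -0.19) to 0.91 (0.76 to 1.06). Leaving out cells over 1%, a limit that removes cells by the measured level itself, took 11 and 106 AT1-like cells away and lowered the AT1-like ratio to 0.87 (0.75 to 0.99). Of single genes, Sftpb was then at -0.54 (-0.93 to -0.14), Sfta2 at -0.65 (-1.27 to -0.00) and Abca3 at -0.58 (-1.02 to -0.12), all below 0, while Sftpc stayed at 1.64 (1.45 to 1.84). Napsa fell under 2-fold already without cells over 5%, at 0.98 (0.58 to 1.41). The Krt8+-like ratio was 1.05 (0.91 to 1.19) and that of club-like cells, 0.50 (0.45 to 0.54) with all cells, was 0.09 (0.03 to 0.14) without cells over 1%. The sum over Krt8+-like cells therefore had no direction that held without those cells. In the median cell Sftpc was at 0 in AT1-like and Krt8+-like cells of the library labelled WT and at 1580 and 1086 CPM in those of the library labelled KO.

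**Figure D4:**
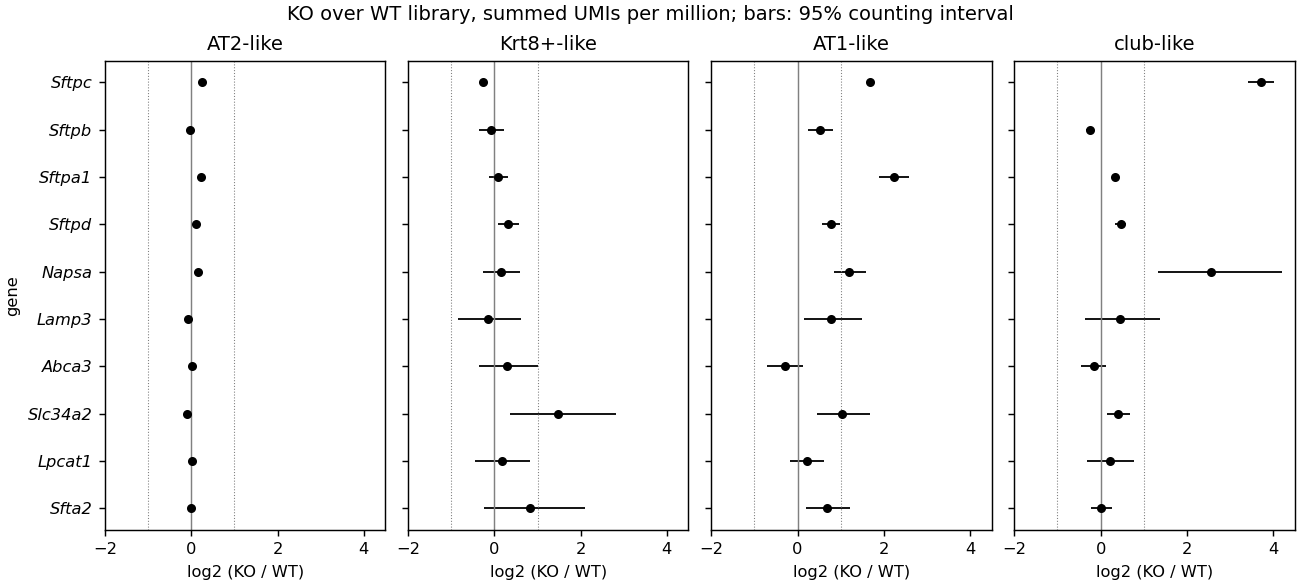
Log2 ratio of summed CPM, library labelled KO over library labelled WT, for the 10 genes in AT2-like, Krt8+-like, AT1-like and club-like cells. Bars are 95% counting intervals and dotted lines mark 2-fold. In AT2-like cells every gene lies between -0.10 and 0.26 (all above 0 with TMM factors), and in club-like cells Sftpc reaches 3.72.

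Immune and endothelial cells, which should not make the surfactant proteins, were taken as the measure of free-RNA background. In 20332 such cells of the library labelled WT Sftpc was at 1480 (1471 to 1490) CPM and in 958 cells of the library labelled KO at 14770 (14648 to 14892), 1.10% and 9.15% of the AT2-like level of the same library. This pooled level rests on few cells rich in the 10 genes (described later) and is not that of a typical cell. In the library labelled KO, Krt8+-like (3311 CPM), AT1-like (10640), club-like (1676) and ciliated-like cells (3324) all held less Sftpc than it. In the library labelled WT club-like cells alone of these did (128). All 10 genes were at least 2-fold higher in immune and endothelial cells of the library labelled KO, against 4.74% of 14546 genes, and the summed level was higher by a log2 of 3.15 (3.13 to 3.16). AT2-like cells made up 1.41% and 39.1% of kept barcodes, and both this share and the background were higher in the library labelled KO. Whether the background followed from that share was not tested, nor was the part of the background in the other differences. Sftpb was at 82.4 (80.2 to 84.5) and 715 (688 to 742) CPM, 1.23% and 10.8% of its AT2-like level. Sftpa1 was at 192 (189 to 196) and 1766 (1724 to 1808), or 1.16% and 9.14%, and Slc34a2 at 48.5 (46.9 to 50.2) and 377 (358 to 397), or 1.04% and 8.68%. These parts of the AT2-like level were close to that of Sftpc in each library.

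Here too a small number of cells held most of the signal. The 10 genes took over 5% of UMIs in 128 immune or endothelial cells of the library labelled WT and in 52 of the library labelled KO, which held 73.0% and 83.6% of the member UMIs. Without them Sftpc stood at 273 and 2484 CPM, and the log2 ratio of the summed level was 2.59 (2.56 to 2.62). Of the 10 genes, 7 were then still at least 2-fold higher in the library labelled KO, and Napsa (0.33, 0.20 to 0.46), Abca3 (0.46, 0.25 to 0.67) and Lpcat1 (0.46, 0.25 to 0.67) were not. The median cell of the library labelled KO still held Sftpc, at 1556 CPM in immune and 2140 in endothelial cells, where the medians in the library labelled WT were 0.

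**Figure D5:**
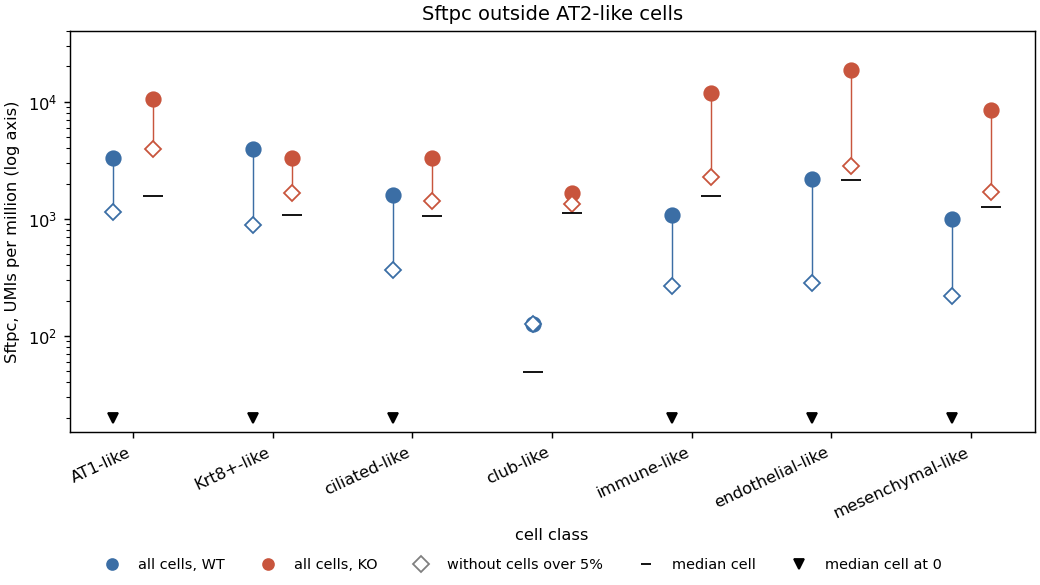
Sftpc outside AT2-like cells, in CPM (log axis), by class and library: the summed level over all cells, the level without cells in which the 10 genes take over 5% of UMIs, and the median cell. Leaving those cells out lowers Sftpc in every class drawn that holds any, and in Krt8+-like cells it puts the library labelled KO above the library labelled WT.

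Against the ratio set by Sftpc, the members fell into 2 sets outside the epithelium. In immune and endothelial cells Sftpb, Sftpa1, Sftpd, Lamp3, Slc34a2 and Sfta2 lay between 0.95-fold and 1.18-fold of the count set by Sftpc in both libraries. Napsa was 7.07-fold (6.92 to 7.21) and 1.63-fold (1.54 to 1.73) above it, Abca3 6.40-fold (6.19 to 6.62) and 1.72-fold (1.56 to 1.88) and Lpcat1 4.28-fold (4.14 to 4.42) and 1.34-fold (1.23 to 1.46). The second set did not hold in each lineage of the library labelled KO. There Napsa was at 1.08-fold (0.97 to 1.19) in endothelial and Lpcat1 at 1.07-fold (0.93 to 1.22) in immune cells, while the other values of these 3 genes were above the count. In mesenchymal cells of that library Napsa was at 0.97-fold (0.92 to 1.02), Abca3 at 1.30-fold (1.21 to 1.40) and Lpcat1 at 1.11-fold (1.04 to 1.18). Without cells over 5%, the range of the first 6 genes widened to 0.97-fold to 2.02-fold, and the excess of Napsa was 34.5-fold (33.8 to 35.3) and 5.09-fold (4.66 to 5.55), of Abca3 30.2-fold (29.2 to 31.4) and 5.40-fold (4.68 to 6.19) and of Lpcat1 18.4-fold (17.8 to 19.1) and 3.28-fold (2.85 to 3.77). Here too the limit tends to lower Sftpc, the base of the ratio, so the rise is no separate support. For Napsa, Abca3 and Lpcat1 the pooled excess was smaller in the library labelled KO, beside its higher background.

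Napsa varied between immune classes. In conventional dendritic-like cells (427 and 22) it was at 458 (434 to 484) and 539 (438 to 656) CPM, 26.1% and 27.4% of its AT2-like level. In mature dendritic-like cells (98 and 5) it was at 416 (358 to 482) and 466 (255 to 783), and in monocyte-like cells (643 and 47) at 402 (376 to 428) and 731 (624 to 849.8). B-like cells (2347 and 58) held it at 230.4 (219 to 243) and 544 (435 to 672). T-like cells (1515 and 97) stood lower at 34.0 (28.9 to 39.8) and 99.7 (68.2 to 141), as did endothelial cells at 45.7 (43.0 to 48.4) and 245 (221 to 269.9). Without cells over 5% of UMIs from the 10 genes Napsa was at 26.0 and 10.0 CPM in T-like and 23.1 and 37.5 in endothelial cells, while no mature dendritic-like cell was over that limit. The conventional dendritic-like, monocyte-like and B-like values are over all cells, so they are not set against these. At the AT2-like ratio, the Sftpc of monocyte-like cells gives 39.1 and 261 CPM of Napsa and that of B-like cells 16.0 and 152. In the library labelled WT Napsa stood 257-fold (221 to 297) above the count set by Sftpc in mature dendritic-like cells. A Napsa UMI was in 83.6% of conventional dendritic-like against 5.41% of T-like cells of that library, at median depths of 6411 and 2609 UMIs. At 1000 UMIs per cell the shares were 33.8% and 1.92%.

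Lpcat1 was at 102 (73.9 to 137) and 167 (54.1 to 389) CPM in mature dendritic-like cells, the highest of the non-epithelial classes in the library labelled WT but not in the library labelled KO. Endothelial cells held it at 83.7 (80.1 to 87.4) and 219 (197 to 243) and T-like cells at 23.9 (19.7 to 28.8) and 84.1 (55.4 to 122). Without cells over 5% these were 64.3 and 94.1, and 18.9 and 13.4. Abca3 stood between 21.1 and 71.4 CPM in each named immune class and in endothelial, mesenchymal and mesothelial cells of the library labelled WT. Lamp3 had 1 UMI in mature dendritic-like cells of each library at 2.31 (0.0585 to 12.9) and 33.3 (0.843 to 186) CPM, so expression there was not detectable at this depth.

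Within AT2-like cells the collectin Sftpd varied most with Lcn2. Cells were divided at 2000 CPM of Lcn2, a gene of activated AT2 cells, into 113 high and 314 low cells in the library labelled WT and 1383 and 4731 in the library labelled KO. Sftpd was at 5517 against 3751 CPM in high and low cells of the first library (log2 0.56, 0.50 to 0.61) and at 6177 against 4074 in the second (0.60, 0.59 to 0.61). Sfta2 (0.26 and 0.30), Sftpa1 (0.25 and 0.23) and Napsa (0.21 and 0.37) were also higher in Lcn2-high cells of both libraries. Abca3 (-0.10, -0.25 to 0.06, and -0.04, -0.08 to -0.01) and Lpcat1 (-0.01, -0.13 to 0.10, and 0.01, -0.01 to 0.04) differed little. Sftpc was close in the library labelled WT (0.03, 0.02 to 0.04) and higher in high cells of the library labelled KO (0.17, 0.17 to 0.17). Lcn2-high cells had a median of 6229 and 8739 UMIs and Lcn2-low cells of 5065 and 7127.

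Cycling AT2-like cells (14 and 165, against 413 and 5949 others) held surfactant message at a lower share of their UMIs. A share of UMIs does not give the amount per cell, and depth was not compared between cycling and other AT2-like cells. The summed level of the 10 genes differed by a log2 of -0.60 (-0.62 to -0.57) in the library labelled WT and -0.34 (-0.34 to -0.33) in the library labelled KO. Slc34a2 (-0.85, -1.05 to -0.66, and -0.53, -0.57 to -0.49), Sftpb (-0.81, -0.97 to -0.66, and -0.51, -0.55 to -0.48) and Sftpa1 (-0.95, -1.05 to -0.85, and -0.40, -0.42 to -0.38) were among the lowest. Sftpd differed from them, at -0.09 (-0.25 to 0.06) and 0.24 (0.21 to 0.27). The values of the library labelled WT rest on 14 cells.

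The wider surfactant programme was followed through 25 listed genes of its transcription, lipid supply, processing and secretion, of which 20 had at least 50 UMIs in AT2-like cells of both libraries. Of these, 6 were higher and 14 lower in the library labelled KO, none differed by 2-fold, and the median log2 ratio was -0.11. Over all genes 33.6% were higher and 7.03% differed by 2-fold, with a median of -0.12. That wider set needed 50 UMIs over both libraries together, so the shares are not of like sets. Of the listed genes left out, Elovl6 (4 and 17 UMIs, log2 -2.22, -3.84 to -0.19) and Abcg1 (10 and 39 UMIs, -2.35, -3.38 to -1.18) were lower by over 2-fold. Both were below their level in immune and endothelial cells. By list, 3 of 7 transcription genes, 3 of 9 lipid genes and 0 of 4 processing and secretion genes were higher. Nkx2-1, the transcription factor of the lung epithelium, was at 419 and 340.3 CPM (log2 -0.30, -0.39 to -0.21) and Prdx6, a peroxiredoxin with phospholipase activity, at 398 and 305 (-0.38, -0.48 to -0.29). Anxa7, a gene of secretory membrane fusion (-0.26, -0.50 to -0.01), and the choline kinase gene Chka (-0.23, -0.35 to -0.11) were also lower. Cebpa, a factor of AT2 maturation, was at 103 and 131 (0.36, 0.17 to 0.55) and the fatty acid elongase Elovl1 at 797 and 1019 (0.35, 0.29 to 0.42). The desaturase gene Scd1 (0.04, 0.01 to 0.06) and the acetyl-CoA carboxylase gene Acaca (0.03, -0.10 to 0.16) followed. In both libraries 17 of the 25 were at least 2-fold higher in AT2-like than in immune and endothelial cells. Among them were Nkx2-1 (67.1-fold and 9.35-fold) and, close to that limit in the library labelled KO, Prdx6 (3.23-fold and 2.01-fold). The share of all genes that were 2-fold higher there was not computed, so the count is not a result about the list.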

How the data were processed

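The deposited files hold UMI counts, 1 matrix per library, made by the authors from 10x Genomics 3' libraries. The submitters' processing notes name Cell Ranger 3.1.0, STAR and GRCm38/mm10, while the matrix header gives software version 5.0.0. Filters kept barcodes in which 200 to 5000 genes were detected and under 20% of UMIs were mitochondrial. A cell joined a lineage, and then a class, where at least 3 of 10 marker genes were detected with a margin of 2 over the next list. At the class step alone, cells at the edge of this rule numbered 38 of 183 and 115 of 571 (AT1), 23 of 70 and 104 of 302 (Krt8+) and 9 of 58 and 94 of 437 (club) in the libraries labelled WT and KO. Cells at the edge of the lineage step were not counted. UMIs were summed per class and library and given per 1000000 UMIs of that class (CPM). Shares of cells were also computed after thinning each cell to 1000 UMIs, with shallower cells left out. With 1 library per genotype no test was run, and intervals (95%) cover counting error only. A ratio uses the exact conditional Poisson interval, and a count of 0 allows up to 3 counts. Genes with fewer than 50 UMIs over both libraries together were left out of counts over all genes. Scrublet marked 0 cells in both libraries, so the caller did not work and doublets were not removed.

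The members and lists were chosen with earlier results of these data known. Named genes were the 10 members, Pclaf, up to 4 listed pathway genes in each direction by size of the log2 ratio, and the genes with the most similar profile over classes. The class markers and Pyy, Ccl5, Npy, Lcn2, Xist and Ddx3y are named as checks or splits, and Elovl6 and Abcg1 as pathway genes under the UMI limit. The ratio step was tested on simulated data. Python 3.11.15, numpy 2.4.6, scipy 1.17.1, pandas 2.3.3, scanpy 1.11.5, matplotlib 3.10.9, R 4.3.3 and edgeR 4.0.16 (TMM factors alone) were used. Other gates, filters, denominators and scalings were tried as alternatives, and values outside AT2-like cells were recomputed without cells in which the 10 genes took over 5% or over 1% of UMIs (chosen after seeing the data).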

Additional observations from a re-analysis of the deposited data

Results flagged for a closer look

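Among Krt8+-like, AT1-like, club-like and ciliated-like cells, 7 gene and class pairs had a log2 ratio of the libraries opposite in sign to that in AT2-like cells with both counting intervals clear of 0. Only members with an AT2-like interval clear of 0 (4 above and 3 below) could give such a pair. The share of all genes with such a pair was not computed, so the count is not a result about the members. With 1 library per genotype none of these contrasts was tested. Sftpc in Krt8+-like cells differed from its AT2-like ratio by -0.52, and without 2 and 4 cells rich in the 10 genes its ratio there turned to 0.91. Sftpb in AT1-like cells was 0.55 above its AT2-like ratio, and its ratio there turned to -0.54 without cells over 1% of UMIs from the 10 genes. Lamp3 in AT1-like cells was 0.86 above. Sftpa1 in ciliated-like cells differed from its AT2-like ratio by -1.06. Slc34a2 was above its AT2-like ratio by 1.57 in Krt8+-like, 1.14 in AT1-like and 0.51 in club-like cells, and without cells over 1% its ratio in club-like cells was -0.27. With TMM factors Sftpb (0.15), Lamp3 (0.10) and Slc34a2 (0.07) were above 0 in AT2-like cells, so 5 of the 7 pairs were no longer opposite in sign. The background of all 10 genes in immune and endothelial cells was higher in the library labelled KO, and its part in these contrasts was not tested.

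Barcodes that met no lineage rule were used in no comparison, and the 10 genes took 1.36% of their UMIs in the library labelled WT and 10.4% in the library labelled KO. Among them, 260 and 887 barcodes held over 5% of UMIs from the 10 genes, with 14.4% and 18.2% of UMIs in all and a median depth of 3418.5 and 3451 UMIs. The other 5924 and 1372 barcodes held 0.111% and 0.838%, at a median depth of 749 and 1021 UMIs.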

How the results depend on the processing

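The summed AT2-like log2 ratio (0.22) was above 0 in 17 of 17 alternatives. It was 0.23 with at least 4 markers, 0.21 with a margin of 3, 0.26 with Leiden clusters, 0.24 under 10% mitochondrial UMIs, 0.21 with no upper gene limit, 0.21 with 1 in 6 KO cells, 0.23 without cells of a Scrublet score above 0.15 (chosen after seeing the data), 0.27 per UMIs outside the 10 genes, 0.40 with TMM factors, 0.10 after background subtraction and 0.20 after subtraction without cells over 5% (also chosen after seeing the data). Of the 10 genes, 10 were higher with TMM factors, 3 after subtraction and 5 after that without cells over 5%. The share of all genes higher was not computed under these settings. No member reached 2-fold in 17 of 17 alternatives, and all 10 were highest in AT2-like cells in 16 of 16. With Leiden clusters no Krt8+ or goblet class was formed, so fewer classes were compared there. By gene, Sftpc, Sftpa1 and Napsa were above 0 in 17 of 17, while Sftpb was above 0 in 3 and Sfta2 in 7.

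The background ratio (3.15), with all alternatives chosen after seeing the data, was 3.13 with 4 markers, 3.02 with a margin of 3, 3.30 with Leiden clusters, 3.19 under 10% mitochondrial UMIs, 3.23 with no upper gene limit, 3.16 without shared barcodes, 2.64 with 1 in 6 KO cells, 2.51 with the Scrublet score limit, 3.09 thinned, 3.17 per UMIs outside the 10 genes, 3.16 outside mitochondrial and ribosomal protein genes, 3.17 with TMM factors, 3.12 as a mean over cells, 2.59 without cells over 5% and 2.40 without cells over 1%. The summed ratio ranged from 0.87 to 1.69 in AT1-like, from -1.38 to 1.05 in Krt8+-like and from 0.09 to 1.63 in club-like cells, with the lowest AT1-like and club-like and the highest Krt8+-like value without cells over 1%. The cause of these shifts was not tested. Leaving out called doublets gave no value, since none was called. No paired analysis was possible because each genotype has 1 library.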

Other observations

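The genes whose level over 33 class profiles of both libraries was most like the mean of the 10 members were ranked among 8966 candidates. Pearson's r on log2 levels, given as a description of profiles that share libraries and depth, was 0.93 for Scd1, a fatty acid desaturase gene, 0.91 for Pla2g1b, a secreted phospholipase gene, 0.89 for Sgpp2, a sphingosine phosphate phosphatase gene, and 0.86 for Fasn, the fatty acid synthase gene. Gm39094 (0.88), Slco4c1 (0.87), Slc26a9 (0.86) and Gm20629 (0.86) were the others of the first 8. Scd1 stood at 4631 and 4746 CPM in AT2-like cells of the libraries labelled WT and KO.

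Single members had different nearest genes. Muc1, a membrane mucin gene, was nearest to Sftpd (0.94) and to Sfta2 (0.89), both of which were held by club-like cells. Sftpb was nearest to Ank3 (0.92), Sftpc to Acoxl (0.90), Lamp3 to Scd1 (0.94), Lpcat1 to Fasn (0.84), Slc34a2 to Gm20629 (0.86), and Sftpa1 (0.91) and Abca3 (0.90) to Pla2g1b. Napsa had the weakest nearest gene of the 10, Cox6a2 at 0.75.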
